A study of Mus musculus with 32 samples.

Results

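Among the genes lower in the livers of *Cyp2c70* KO mice on chow and higher when KO mice received SC-435, 5 were followed here across all 8 groups of mice: *Fam19a2*, *Srgap3*, *Susd4*, *Nlrp12* and *Pcp4l1*. They are 5 of the 54532 genes in the deposited table, and they were picked by symbol because of those differences. The values of KO against WT mice on chow and of SC-435 against chow in KO mice therefore chose them and are given as a description. The comparisons tested are those of WT mice with and without SC-435, of treated KO mice with either WT group, and of females with males. Apart from the treated WT mice, every group entered the choice, so most of these comparisons share groups with it. Treated KO against chow-fed WT mice uses only groups of the choice, so its p-values are not independent of it. The same holds for females against males in every condition except WT with SC-435.

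Poly(A) RNA from liver was sequenced in 32 C57BL/6 mice, 4 in each combination of sex, genotype and diet, and all were sacrificed at 12 weeks. The diet was chow, or chow with 0.006% SC-435 (about 11 mg/kg/day) that the labels place from 3 weeks after weaning. The study's own account starts it at weaning, so the length of treatment differs between these sources. The KO line carries a CRISPR-Cas9 deletion of exon 2 of *Cyp2c70* in every cell and comes from the founder that carried this deletion, so effects of the deletion and of anything linked to it in that line cannot be told apart. Chow-fed mice of either genotype received no agent, and the labels give no other allele or treatment for any group.

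*Cyp2c70* encodes the enzyme that makes the muricholic acids, the hydrophilic bile acids of rodents, and mice without it keep a more hydrophobic, human-like bile acid pool. SC-435 blocks the ileal bile acid transporter, so that bile acids leave with the feces and hepatocytes make more of them from cholesterol. The 5 genes have little in common by function. *Fam19a2*, also named *Tafa2*, encodes a secreted chemokine-like protein studied mostly in the brain, and *Srgap3* encodes a membrane-bending protein that switches off the small GTPase Rac1 downstream of the Slit receptors of the Robo family. *Susd4* encodes a sushi domain protein that restrains complement, *Nlrp12* an intracellular NOD-like receptor that dampens NF-kB signaling, and *Pcp4l1* a small IQ-motif protein related to the calmodulin regulator Pcp4.

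In mm10, *Fam19a2* (ENSMUSG00000044071) lies on the plus strand of chromosome 10 from 123263996 to 123741204. *Srgap3* (ENSMUSG00000030257) lies on the minus strand of chromosome 6 from 112717971 to 112947266. *Susd4* (ENSMUSG00000038576) lies on the plus strand of chromosome 1 from 182763860 to 182896591, and *Pcp4l1* (ENSMUSG00000038370) lies on the minus strand of that chromosome from 171173262 to 171196268. *Nlrp12* (ENSMUSG00000078817) lies on the minus strand of chromosome 7 from 3218784 to 3249740. All are protein-coding, and their merged exons span from 1577 bases in *Pcp4l1* to 9852 bases in *Srgap3*. The exons of *Fam19a2*, *Susd4* and *Pcp4l1* share no base with another annotated gene. In *Nlrp12*, 476 exonic bases (6.31%) also belong to 7 microRNA genes, each counted at 0 reads in every mouse. In *Srgap3*, 150 exonic bases (1.52%) overlap an antisense gene that reached at most 2 reads.

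The promoters of 4 of the genes are shown. With SC-435 in WT females *Fam19a2* and *Pcp4l1* moved in opposite directions, and the values of *Srgap3*, *Susd4* and *Nlrp12* lay between them. The windows of *Susd4* are described below without their letters. Each window runs from 250 bases before to 50 bases after the RefSeq start site (GRCm38.p6), 5′ to 3′ on the strand of the gene. Capitals mark a match to a searched motif.
Fam19a2 (chr10:123263826-123264125, plus strand): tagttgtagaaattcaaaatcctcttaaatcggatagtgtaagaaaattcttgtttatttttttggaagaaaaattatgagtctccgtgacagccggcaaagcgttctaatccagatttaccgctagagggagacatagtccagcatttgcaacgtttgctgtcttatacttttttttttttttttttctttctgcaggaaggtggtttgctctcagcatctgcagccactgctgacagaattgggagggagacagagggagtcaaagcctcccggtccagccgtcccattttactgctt
Srgap3 (chr6:112947217-112947516, minus strand): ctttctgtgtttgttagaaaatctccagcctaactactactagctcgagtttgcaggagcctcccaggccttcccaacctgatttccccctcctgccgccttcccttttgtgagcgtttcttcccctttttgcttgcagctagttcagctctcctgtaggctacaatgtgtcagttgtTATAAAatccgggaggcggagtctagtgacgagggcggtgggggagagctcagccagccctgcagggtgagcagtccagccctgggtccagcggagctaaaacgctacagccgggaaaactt
Nlrp12 (chr7:3249691-3249990, minus strand): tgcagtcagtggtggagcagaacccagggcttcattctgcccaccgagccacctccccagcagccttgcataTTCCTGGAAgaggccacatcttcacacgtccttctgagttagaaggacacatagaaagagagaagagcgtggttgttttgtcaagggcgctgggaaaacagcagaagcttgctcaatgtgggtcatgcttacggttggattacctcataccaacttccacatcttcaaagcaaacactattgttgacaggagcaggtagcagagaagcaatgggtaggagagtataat
Pcp4l1 (chr1:171196219-171196518, minus strand): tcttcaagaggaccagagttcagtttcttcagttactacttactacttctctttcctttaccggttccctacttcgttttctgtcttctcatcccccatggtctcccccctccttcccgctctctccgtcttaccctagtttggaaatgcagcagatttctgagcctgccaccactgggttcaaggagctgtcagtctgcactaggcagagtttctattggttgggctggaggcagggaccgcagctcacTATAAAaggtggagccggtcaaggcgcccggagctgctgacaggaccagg
The motifs searched on both strands were the nuclear receptor core AGGTCA, its longer LRH-1 form CAAGGTCA (which contains the former), the HNF4 signature CAAAGTCCA, the STAT5 type palindrome TTCNNNGAA, the C/EBP palindrome TTGCGCAA, the SREBP type element TCACNCCAC, the NF-kB type element GGANTTTCC, the E-box CACGTG and the TATA box TATAAA. *Srgap3* and *Pcp4l1* each held the TATA box letters, at bases 179 to 184 and 251 to 256 of the window, and 13.6% of 32851 RefSeq promoters of that length hold it. *Nlrp12* held a match to the STAT5 type palindrome, TTCCTGGAA, at bases 73 to 81, and 8.30% of promoters hold that motif. The other motifs occur in 0.183% (C/EBP) to 16.3% (nuclear receptor core) of promoters. The *Fam19a2* window and both *Susd4* windows held none of these letters. GC content was 41.7% for *Fam19a2*, 54.7% for *Srgap3*, 49.7% for *Nlrp12* and 53.3% for *Pcp4l1*, against 81.3% and 63.7% for the *Susd4* windows and a median of 52.7% over all promoters. Such matches describe the sequence and do not show that a factor binds there.

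Library totals lay between 36476021 and 44771350 reads on genes. Levels are given in CPM, in which a library's reads are divided by its total and its TMM factor (set over the 32 libraries, to allow for a few genes that take many reads). One library stood apart: replicate 1 of the chow-fed WT males had a TMM factor of 0.622, against 0.911 to 1.26 in the other libraries, and a mean correlation with its group of 0.918, against at least 0.962 for every other library. Fold changes and tests that use chow-fed WT males are therefore also given without it. *Cyp2c70* itself was at 704 ± 104 CPM (SD, n = 4) in chow-fed WT females and 165 ± 12.6 CPM in KO females, with a log2 fold change of -2.10 (SE 0.13, adjusted p = 0.000102, edgeR), and at 626 ± 109 and 174 ± 14.8 CPM in males, with a log2 fold change of -1.81 (SE 0.19, adjusted p = 0.00563, edgeR). The 10 hepatocyte markers summed to at least 56098 CPM in every library, as liver should give. They summed to 96685 to 121453 CPM in chow-fed WT females and to 60904 to 83222 CPM in chow-fed KO females, and the part of that difference in the results was not tested. *Cyp7a1*, the rate-limiting enzyme of bile acid synthesis, rose with SC-435 in WT females (log2 fold change 4.28, SE 0.47, adjusted p = 0.00291, edgeR). Of 16 tested genes of bile acid synthesis, transport and feedback 3 rose and 1 fell there, where 2.40% of all tested genes rose and 1.88% fell.

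**Figure D1:**
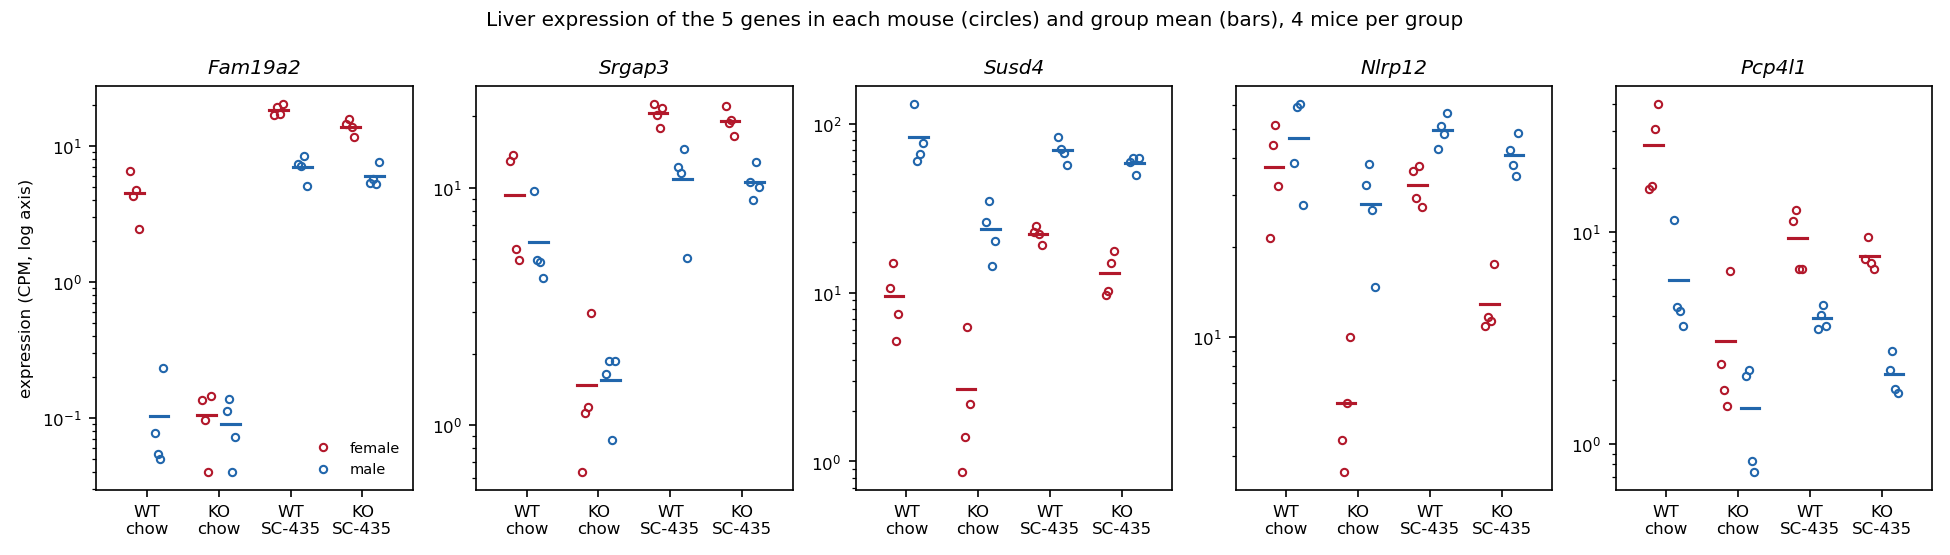
Expression of the 5 genes in every mouse, in CPM on log axes with a separate scale for each gene, for WT and KO mice on chow or SC-435 (red, females; blue, males; bars, group means). *Fam19a2* lay at or below 0.233 CPM in all chow-fed groups except WT females, *Susd4* was higher in males in every condition, and *Pcp4l1* was highest in chow-fed WT females.

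Read per length, with the deposited FPKM values, the genes were expressed at low to moderate levels. In chow-fed WT females the mean was 16.2 ± 7.36 FPKM (SD, n = 4) for *Pcp4l1*, 4.89 ± 1.74 for *Nlrp12*, 2.46 ± 1.09 for *Susd4*, 0.949 ± 0.351 for *Fam19a2* and 0.939 ± 0.474 for *Srgap3*. In chow-fed WT males *Susd4* led with 21.8 ± 9.05 FPKM, or 17.3 ± 2.15 FPKM (SD, n = 3) without replicate 1, and *Fam19a2* was last with 0.0222 ± 0.0184 FPKM, or 0.0238 ± 0.0221 FPKM without it. The order of the genes thus differed between the sexes before any deletion or treatment.

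With all libraries included, the values that chose the genes were clearest in females. In KO against WT females on chow, all 5 genes were lower by the rule of the study (a change beyond 1 on the log2 scale at an adjusted p below 0.05), where 1.01% of 16205 tested genes were lower by that rule and 14.9% passed the adjusted p in either direction. With SC-435 in KO females all 5 were higher, where 2.11% of 16332 genes were higher by that rule and 17.8% passed the adjusted p in either direction. For KO against WT females, leaving out 1 library left 4 of the genes by the rule, or 5 without replicate 3 of the KO mice. For SC-435 in KO females it left 3, or 5 without replicate 4 of the chow-fed mice. In males, *Srgap3* and *Susd4* were lower by that rule in KO mice on chow, where 0.132% of 15862 genes were and 1.08% passed the adjusted p. Without replicate 1 of the WT males 2 of the 5 genes met it, where 0.702% of genes did and 7.30% passed the adjusted p. Leaving out replicate 2, 3 or 4 of the WT males or 1, 3 or 4 of the KO males left 0 of the 5 genes by that rule, and leaving out replicate 2 of the KO males left 1. With SC-435 in KO males *Fam19a2*, *Srgap3* and *Susd4* were higher by that rule, where 1.88% of 15984 genes were and 17.2% passed the adjusted p. The count stayed at 3 when any 1 library was left out. Over all genes, 64 had the pattern of lower in KO and higher with SC-435 in females, 10 had it in males and 3 had it in both sexes, among them *Srgap3* and *Susd4*. Because these contrasts selected the genes, nothing is read from these counts. In bulk liver, fewer cells of a type and less RNA per cell cannot be told apart.

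*Fam19a2* was nearly absent from the livers of KO mice on chow and from those of WT males on chow. In chow-fed WT females it was at 6.52, 4.25, 4.76 and 2.44 CPM. In chow-fed KO females it was at 0.135, 0.0968, 0.0403 and 0.146 CPM, which are 2 to 7 reads per mouse. In chow-fed WT males it was at 0.0780, 0.0547, 0.0495 and 0.233 CPM, or 2 to 9 reads, and chow-fed KO males lay between 0.0403 and 0.138 CPM. The KO females did not overlap the WT females but overlapped both groups of males. The floor that 3 reads set in the smallest library of a group was 0.0691 to 0.117 CPM, so the low groups lay near the limit of detection, the gene did not pass the filter in KO against WT males, and no fold is given there. In females the description gives a log2 fold change of -5.41 (SE 0.42) for KO against WT on chow.

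With SC-435, *Fam19a2* was present in every mouse of either sex and genotype. WT females with SC-435 had 16.8, 19.2, 17.1 and 20.2 CPM, and KO females with SC-435 had 14.5, 15.7, 13.7 and 11.6 CPM. WT males with SC-435 had 7.33, 7.17, 8.41 and 5.09 CPM, and KO males with SC-435 had 5.33, 5.67, 5.26 and 7.63 CPM. Every treated group lay above the chow-fed group of the same sex and genotype without overlap. In KO mice, where the contrast chose the gene, the log2 fold change was 7.04 (SE 0.25) in females and 6.03 (SE 0.32) in males.

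The same change was tested in WT mice, which the choice of the genes did not use as treated animals, although the chow-fed WT mice entered it. In WT females *Fam19a2* rose 4.08-fold (log2 fold change 2.03, SE 0.24, adjusted p = 0.00403 over 15739 genes, edgeR). In that comparison 3 of the 5 genes passed the adjusted p, where 4.28% of tested genes did. In WT males it rose by 6.01 on the log2 scale (SE 0.47, adjusted p = 0.0055, edgeR), the smallest p of 15211 genes. It was the only one of the 5 genes to pass there, where 6 genes or 0.0394% did in all. Without replicate 1 of the chow-fed WT males the log2 fold change was 5.92 (adjusted p = 0.000953, edgeR), and 394 genes or 2.53% passed. The sex difference of the response was tested as an interaction over the 16 WT mice, in which *Fam19a2* again had the smallest p (difference -3.99, SE 0.50, adjusted p = 0.00971 over 16373 genes, edgeR). It was the only one of the 5 to pass, where 0.0428% of genes did, and without that library the difference was -3.88 (adjusted p = 0.00782, edgeR), where 15 genes passed. WT females started from a higher level and ended at a higher level, so the larger fold in males went with the lower starting level.

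Treated KO females exceeded chow-fed WT females in *Fam19a2* by 1.63 on the log2 scale (SE 0.24, adjusted p = 0.00159, edgeR), one of 4 genes of the 5 that passed there, where 16% of all tested genes did. Both groups entered the choice of the genes, so this comparison and that of males are not independent of it. Treated KO males exceeded chow-fed WT males, which lay near the floor, by 5.79 (SE 0.46, adjusted p = 0.00193, edgeR), the only one of the 5 to pass, where 0.208% did. Without replicate 1 of the chow-fed WT males that difference was 5.70 (adjusted p = 0.000123, edgeR), and 3 of the 5 genes passed, where 12.2% of tested genes did. Against treated WT females, treated KO females were lower by a small amount (log2 fold change -0.40, SE 0.10, adjusted p = 0.0314, edgeR), and 3 of the 5 genes passed there, where 10.9% of genes did. That call of *Fam19a2* was lost when any of 5 libraries was left out: replicates 2 and 4 of the WT females or 1, 3 and 4 of the KO females (adjusted p 0.0597 to 0.0747). It was also lost with all 32 libraries in 1 fit (adjusted p = 0.591, edgeR). In males the corresponding log2 fold change was -0.23 (SE 0.18, adjusted p = 0.728, edgeR).

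Of the 4 other TAFA family genes, *Fam19a5* and *Fam19a3* were expressed enough to be tested in females on chow. *Fam19a5* fell in KO females on chow (log2 fold change -1.47, SE 0.42, adjusted p = 0.0424, edgeR) and gave 0.69 with SC-435 (SE 0.43, adjusted p = 0.288, edgeR). *Fam19a3* gave 0.63 in KO females on chow (adjusted p = 0.327, edgeR) and fell by 1.16 with SC-435 in KO females (SE 0.36, adjusted p = 0.0493, edgeR). In WT females with SC-435, 0 of the 2 tested family members passed with edgeR, where 4.28% of all tested genes did.

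*Srgap3* was lower in KO mice of both sexes on chow, and its levels in treated WT and KO mice overlapped. Chow-fed WT females had 13, 13.8, 5.53 and 4.98 CPM and chow-fed KO females had 0.638, 1.12, 1.19 and 2.96 CPM. Treated WT females had 22.5, 20.3, 17.8 and 21.7 CPM and treated KO females had 22.2, 18.7, 19.2 and 16.5 CPM. The chow-fed females of either genotype did not overlap each other or the treated mice, while the treated WT and KO females overlapped. The description gives -2.68 (SE 0.49) for KO against WT females on chow and 3.72 (SE 0.37) for SC-435 in KO females, on the log2 scale.

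In males *Srgap3* was at 9.71, 4.98, 4.88 and 4.17 CPM in chow-fed WT mice and at 1.65, 1.86, 0.867 and 1.86 CPM in chow-fed KO mice. Treated WT males had 12.2, 11.6, 14.6 and 5.07 CPM, and treated KO males had 10.6, 8.87, 12.9 and 10.1 CPM. Treated and chow-fed WT males overlapped, and replicate 1 was the highest of the chow-fed WT males. In these males the description gives -1.89 (SE 0.37) for KO against WT on chow, or -1.57 without that library, and 2.77 (SE 0.25) for SC-435 in KO mice.

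In WT mice alone, the log2 fold change of *Srgap3* with SC-435 was 1.14 in females (SE 0.31, adjusted p = 0.0714, edgeR) and 0.87 in males (SE 0.38, adjusted p = 0.803, edgeR). The female groups did not overlap, and DESeq2 on the same libraries gave an adjusted p of 0.0031. Without replicate 1 of the chow-fed WT males the male value was 1.22 (adjusted p = 0.0828, edgeR). Treated KO females exceeded chow-fed WT females (log2 fold change 1.03, SE 0.30, adjusted p = 0.038, edgeR), a call lost when replicate 3 or 4 of the WT females or any treated KO female was left out (adjusted p 0.0543 to 0.0889). It was also lost with all 32 libraries in 1 fit (adjusted p = 0.0909, edgeR). Treated KO males gave 0.86 against chow-fed WT males (SE 0.28, adjusted p = 0.391, edgeR), and without replicate 1 of those WT males the value was 1.19 and passed (adjusted p = 0.00183, edgeR). In both comparisons each group had entered the choice of the gene. Between treated KO and WT mice the log2 fold change was -0.10 (SE 0.10, adjusted p = 0.558, edgeR) in females and -0.03 (SE 0.27, adjusted p = 0.98, edgeR) in males.

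Of the Slit and Robo genes and their partners other than *Srgap3*, 6 of 15 tested rose and 0 fell in KO females on chow (edgeR, median log2 fold change 0.33, against -0.02 over all genes, of which 9.83% rose and 5.05% fell). In the same mice 7 of 9 tested cholangiocyte markers and 4 of 10 stellate cell and myofibroblast markers rose and 0 fell. The summed cholangiocyte markers spanned 56.5 to 87.5 CPM in chow-fed WT females and 155 to 320 CPM in chow-fed KO females. The stellate markers spanned 322 to 425 CPM and 465 to 1023 CPM in those groups, and their part in the Slit and Robo counts was not tested. *Slit2*, a secreted Robo ligand, rose by 2.30 (SE 0.44, adjusted p = 0.00817, edgeR), and *Robo2*, a receptor, rose by 1.48 (SE 0.24, adjusted p = 0.00425, edgeR). With SC-435, *Slit2* fell by 1.63 in KO females (SE 0.40, adjusted p = 0.0212, edgeR). *Robo1*, a receptor as well, rose with SC-435 in WT females (1.35, SE 0.14, adjusted p = 0.00245, edgeR), KO females (0.71, SE 0.13, adjusted p = 0.00694, edgeR) and KO males (1.07, SE 0.19, adjusted p = 0.00888, edgeR).

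*Susd4* differed first by sex. Chow-fed WT males had 130, 59.8, 65.9 and 76.3 CPM, whereas chow-fed WT females had 10.7, 14.9, 5.19 and 7.45 CPM. Chow-fed KO males had 26, 35, 14.4 and 20.1 CPM and chow-fed KO females had 0.870, 1.39, 6.23 and 2.18 CPM. KO males lay below all WT males, while 1 KO female, at 6.23 CPM, lay within the range of the WT females. The description of KO against WT on chow is a log2 fold change of -1.85 (SE 0.55) in females and -1.76 (SE 0.33) in males, or -1.48 in males without replicate 1 of the WT group, which held the value of 130 CPM.

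With SC-435 *Susd4* was at 22.8, 24.7, 22.1 and 19.1 CPM in WT females and at 9.70, 10.2, 15 and 17.5 CPM in KO females. Treated WT males had 83.0, 71.1, 66.9 and 56.6 CPM and treated KO males had 59.0, 62.8, 49.7 and 62.2 CPM. In females the treated WT mice lay above every other group, and in males the treated groups overlapped chow-fed WT mice. For SC-435 in KO mice, which chose the gene, the log2 fold change was 2.30 (SE 0.51) in females and 1.29 (SE 0.23) in males.

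In WT mice *Susd4* rose with SC-435 in females (log2 fold change 1.21, SE 0.27, adjusted p = 0.0353, edgeR), a call lost when replicate 1 or 4 of the chow-fed or any of the treated females was left out (adjusted p 0.0555 to 0.0859). It was also lost with all 32 libraries in 1 fit (adjusted p = 0.138, edgeR). In WT males the value was -0.26 (SE 0.27, adjusted p = 0.857, edgeR), and 0.04 without replicate 1 on chow (adjusted p = 0.889, edgeR). The interaction of sex and diet in WT mice was 1.45 (SE 0.39, adjusted p = 0.748, edgeR), or 1.17 without that library (adjusted p = 0.157, edgeR), so the sexes were not shown to differ in the response. Treated KO females lay below treated WT females (log2 fold change -0.75, SE 0.18, adjusted p = 0.0249, edgeR), a call lost without replicate 1 or 2 of either group (adjusted p 0.0504 to 0.071). With all 32 libraries in 1 fit it was lost as well (adjusted p = 0.45, edgeR). Against chow-fed WT mice, treated KO mice gave 0.45 in females (SE 0.29, adjusted p = 0.327, edgeR) and -0.49 in males (SE 0.25, adjusted p = 0.689, edgeR), or -0.20 in males without replicate 1 on chow (adjusted p = 0.252, edgeR).

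Of the other complement genes, 3 of 13 tested regulators rose and 1 fell in KO females on chow (median log2 fold change -0.08), and 5 of 22 components rose and 3 fell (median 0.08, edgeR), against 14.9% of all genes that passed in either direction and a median of -0.02. *C1qb*, a subunit of the C1q recognition protein, rose by 0.93 (SE 0.16, adjusted p = 0.00602, edgeR), and *C4bp*, a soluble regulator of the classical pathway, fell by 0.49 (SE 0.13, adjusted p = 0.0311, edgeR). With SC-435 in WT females, 0 of 12 regulators and 0 of 22 components passed with edgeR, where 4.28% of all tested genes did, so nothing is read from these counts.

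*Nlrp12* separated KO from WT females on either diet, while KO and WT males on the same diet overlapped. Chow-fed WT females had 21.5, 44.0, 51.3 and 32 CPM, chow-fed KO females had 4.53, 3.54, 6.03 and 10.0 CPM, and treated KO females had 10.9, 11.7, 11.3 and 17.6 CPM. Treated WT females had 36.0, 29.2, 37.3 and 27.3 CPM. All KO females lay below all WT females on either diet, and the treated KO females lay just above the chow-fed ones. The log2 fold change that describes the choice was -2.64 (SE 0.35) for KO against WT on chow and 1.10 (SE 0.29) for SC-435 in KO females.

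Treated KO females stayed below chow-fed WT females in *Nlrp12* (log2 fold change -1.53, SE 0.25, adjusted p = 0.00269, edgeR) and below treated WT females (-1.33, SE 0.16, adjusted p = 0.00163, edgeR). Their mean was 34.6% of that of chow-fed WT females and 39.7% of that of treated WT females. Both comparisons share the treated KO females, and the former also the chow-fed WT females, with the choice of the gene. These calls held under the other settings tried and without any 1 library, with a highest adjusted p of 0.0142 and 0.0199 in turn. In WT mice SC-435 gave -0.20 in females (SE 0.23, adjusted p = 0.681, edgeR) and 0.10 in males (SE 0.26, adjusted p = 0.932, edgeR), or 0.014 in males without replicate 1 on chow (adjusted p = 0.982, edgeR). In males *Nlrp12* was at 38.4, 59.1, 60.3 and 27.8 CPM in chow-fed WT mice and at 32.2, 38.0, 26.7 and 14.7 CPM in chow-fed KO mice. Treated WT males had 42.6, 51.0, 48.1 and 56.3 CPM, treated KO males had 42.4, 37.7, 34.5 and 48.4 CPM, and each male group overlapped the next. The male description is -0.71 (SE 0.34) for KO against WT on chow, or -0.80 without replicate 1 of the WT group, and 0.55 (SE 0.25) for SC-435 in KO mice.

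*Nlrp12* is known from myeloid cells, and markers of those cells moved the other way. The 10 neutrophil markers, each above 3 reads in at least 1 mouse, summed to 2.97 to 3.92 CPM in chow-fed WT females, 5.29 to 12.2 CPM in chow-fed KO females and 2.41 to 4.05 CPM in treated KO females. The 10 macrophage and monocyte markers summed to 273 to 326, 484 to 689 and 239 to 360 CPM in those groups. Of the tested markers, 3 of 3 for neutrophils and 8 of 10 for macrophages and monocytes rose in KO females on chow (edgeR), where 9.83% of all tested genes rose. The part of these markers in the level of *Nlrp12* was not tested.

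In KO females on chow, where *Nlrp12* was low, genes of the same pathway rose. Among NOD-like receptors and inflammasome genes other than *Nlrp12*, 13 of 21 tested rose and 0 fell in KO females on chow, with a median log2 fold change of 0.92 against -0.02 over all genes, of which 9.83% rose (edgeR). *Il1b*, an inflammasome-processed cytokine, rose by 2.33 (SE 0.37, adjusted p = 0.00387, edgeR), and *Nlrp3*, the best known inflammasome receptor, rose by 1.18 (SE 0.25, adjusted p = 0.0122, edgeR). With SC-435 in KO females 6 of 21 fell and 0 rose, where 9.23% of all genes fell and 8.56% rose, *Nlrp3* by 1.14 (SE 0.28, adjusted p = 0.0212, edgeR). Treated KO females, in which *Nlrp12* stayed low, had 3 of 21 higher than chow-fed WT females (median 0.24), where 8.73% of all genes were. Against treated WT females 2 of 21 were higher (median 0.11), where 6.23% of all genes were, and 0 were lower in either comparison. In KO males on chow 0 of 21 passed (median 0.85), where 1.08% of all genes did. That count includes replicate 1 of the WT males, without which 7.30% of all genes passed and the list was not counted. Of the genes of noncanonical NF-kB and TNF receptor signaling, a list that also holds canonical NF-kB genes, 6 of 16 rose and 0 fell in KO females on chow, with a median of 0.18. Among them *Map3k14*, the kinase that NLRP12 is known to restrain, rose by 1.07 (SE 0.23, adjusted p = 0.0134, edgeR) and *Relb* rose by 1.36 (SE 0.25, adjusted p = 0.00742, edgeR). Whether the rises of these pathway genes go with the low *Nlrp12* or with the higher myeloid markers was not tested.

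*Pcp4l1* moved in opposite directions with SC-435 in WT and KO females. Chow-fed WT females had 15.9, 16.4, 30.6 and 39.9 CPM, and treated WT females had 11.3, 12.6, 6.69 and 6.65 CPM. Chow-fed KO females had 2.38, 1.80, 1.51 and 6.55 CPM, and treated KO females had 7.43, 9.49, 7.09 and 6.68 CPM. Every treated WT female lay below every chow-fed one, every treated KO female lay above every chow-fed one, and the treated groups overlapped. Within chow-fed WT females, the 2 mice with the most *Pcp4l1* were the 2 with the least *Srgap3* and *Susd4*. That order was not general. Over all 8 groups, with each group mean subtracted, *Pcp4l1* had a Pearson r of 0.28 with *Srgap3* and 0.06 with *Susd4*.

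The fall in WT females passed the test (log2 fold change -1.47, SE 0.33, adjusted p = 0.0384, edgeR), but it was lost when replicate 3 or 4 of the chow-fed or any of the treated WT females was left out (adjusted p 0.0562 to 0.121), and the chow-fed WT group was one of those on which the gene was chosen. The call was also lost with all 32 libraries in 1 fit (adjusted p = 0.082, edgeR). Treated KO females stayed below chow-fed WT females (-1.74, SE 0.28, adjusted p = 0.0025, edgeR), at 29.9% of their mean, and both groups had entered the choice. Against treated WT females they gave -0.28 (SE 0.22, adjusted p = 0.452, edgeR). The description of the choice in females is -3.09 (SE 0.49) for KO against WT on chow and 1.34 (SE 0.41) for SC-435 in KO mice.

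In males *Pcp4l1* was at 11.4, 4.43, 4.24 and 3.60 CPM in chow-fed WT mice and at 2.10, 2.23, 0.826 and 0.740 CPM in chow-fed KO mice. Treated WT males had 3.47, 4.06, 4.53 and 3.59 CPM and treated KO males had 2.24, 2.75, 1.82 and 1.73 CPM. KO males lay below WT males on either diet, and the value of 11.4 CPM came from replicate 1. SC-435 in WT males gave -0.59 (SE 0.37, adjusted p = 0.836, edgeR), or -0.06 without that library (adjusted p = 0.868, edgeR). Treated KO males gave -1.45 against chow-fed WT males (SE 0.39, adjusted p = 0.246, edgeR), and without replicate 1 of the WT group -0.93, which passed (adjusted p = 0.017, edgeR). Between treated KO and WT males, 0 of the 5 genes passed the adjusted p with edgeR, where 0.0324% of genes did, while 2 had an unadjusted p under 0.05. One of them was *Pcp4l1* (log2 fold change -0.87, SE 0.18, adjusted p = 0.234, edgeR), the 1 gene of the 5 that DESeq2 called there (adjusted p = 0.00324). The male description is -1.97 (SE 0.51) for KO against WT on chow, or -1.46 without replicate 1 of the WT group, and 0.54 (SE 0.39) for SC-435 in KO mice.

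Of the other calmodulin and IQ-motif genes, 1 of 13 tested rose and 1 fell in KO females on chow (edgeR), a share near the 14.9% of all genes that passed, with a median log2 fold change of -0.08. The one that fell was *Camk2b*, a calmodulin-dependent kinase subunit (-1.75, SE 0.38, adjusted p = 0.0135, edgeR), which also fell in KO males on chow (-1.47, SE 0.18, adjusted p = 0.0126, edgeR). *Camk2b* was also lower in treated KO than treated WT mice, by -2.33 in females (SE 0.18, adjusted p = 0.000111, edgeR) and -2.12 in males (SE 0.12, adjusted p = 9.51e-05, edgeR). *Camk1d*, another calmodulin-dependent kinase, rose with SC-435 in WT females (0.73, SE 0.07, adjusted p = 0.00184, edgeR) and KO females (1.75, SE 0.29, adjusted p = 0.00563, edgeR).

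*Fam19a2*, *Srgap3* and *Pcp4l1* are best known from neurons, and 1 of 6 tested neuronal and glial markers rose in KO females on chow while 0 fell (edgeR). Of all tested genes 9.83% rose and 5.05% fell there, and nothing is read from so short a list. The 10 markers summed to 16.4 to 24.4 CPM in chow-fed WT females and 17.9 to 21.8 CPM in chow-fed KO females, and *Snap25* and *Nefl* had 3 reads or fewer in every mouse. The sum was 18.3 to 22.6 CPM in treated WT and 24.9 to 26.2 CPM in treated KO females, and its part in the higher levels of the treated KO mice was not tested.

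**Figure D2:**
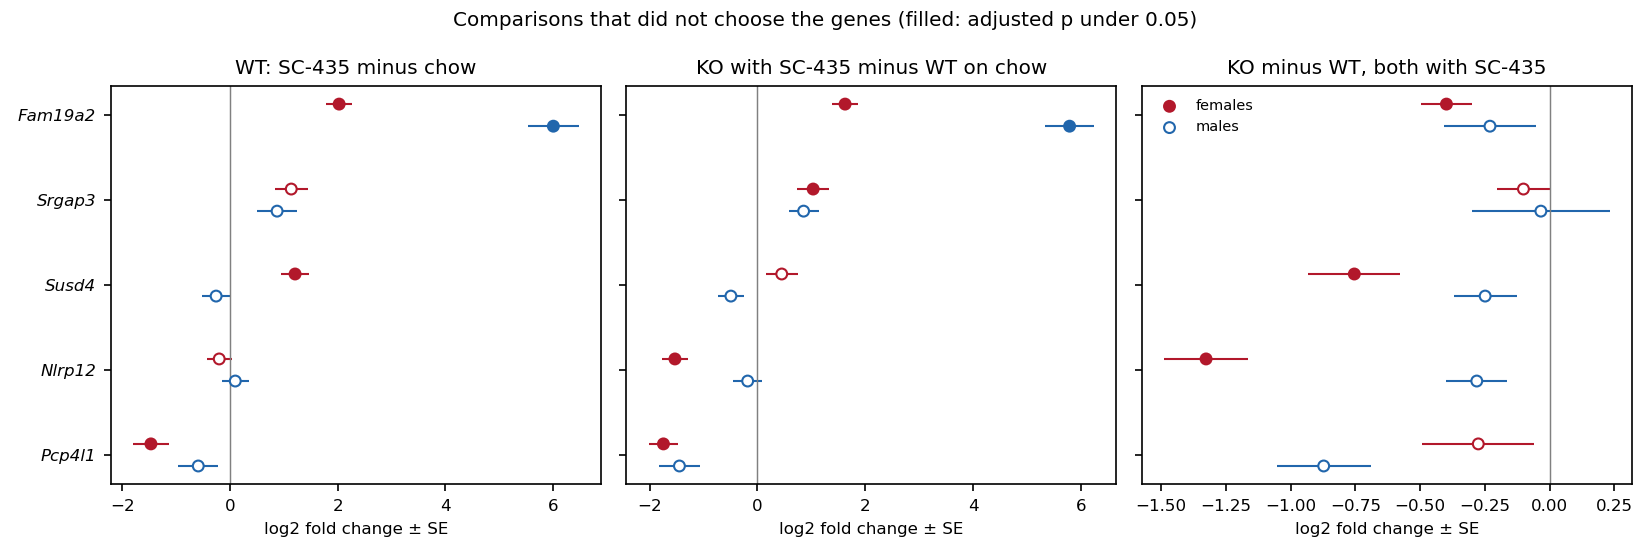
Log2 fold changes with SE for the 5 genes in the 3 comparisons that did not choose them (red, females; blue, males; filled circles, adjusted p under 0.05; the axis of the third panel spans a smaller range). *Fam19a2* rose with SC-435 in WT mice of both sexes, and *Nlrp12* and *Pcp4l1* in treated KO females lay below chow-fed WT females. The middle panel uses only groups that entered the choice of the genes, and each outer panel shares a group with that choice, so none is independent of it.

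How many of these genes differed between the sexes depended on the condition, from 2 on chow to 4 or 5 with SC-435. In chow-fed WT mice, *Fam19a2* was higher in females (log2 fold change 5.36, SE 0.54, adjusted p = 0.00135, edgeR) and *Susd4* was lower (-3.12, SE 0.39, adjusted p = 0.0042, edgeR). These were 2 of the 5 genes, where 1.49% of tested genes passed. Each sex had entered the choice, and *Fam19a2* in the males lay near the floor. *Srgap3* gave 0.66 (SE 0.41, adjusted p = 0.616, edgeR), or 0.99 without replicate 1 of the males (adjusted p = 0.123, edgeR). *Nlrp12* gave -0.33 (SE 0.33, adjusted p = 0.749, edgeR), or -0.40 without that library (adjusted p = 0.495, edgeR). *Pcp4l1* gave 2.13 (SE 0.45, adjusted p = 0.062, edgeR), and without replicate 1 of the males it gave 2.65 and passed (adjusted p = 0.00178, edgeR). Without that library 3 of the 5 passed, where 9.53% of tested genes did, and the values were 5.27 for *Fam19a2* (adjusted p = 0.000507, edgeR) and -2.82 for *Susd4* (adjusted p = 0.000587, edgeR).

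In treated WT mice, a comparison that shares no group with the choice of the genes, 4 of the 5 passed, where 7.05% of tested genes did. Females had more *Fam19a2* (1.39, SE 0.15, adjusted p = 0.000581, edgeR) and *Pcp4l1* (1.25, SE 0.23, adjusted p = 0.012, edgeR) and less *Susd4* (-1.65, SE 0.12, adjusted p = 5.78e-05, edgeR). *Nlrp12* was lower in females (-0.61, SE 0.12, adjusted p = 0.0169, edgeR), which was lost without replicate 2 of the males (adjusted p = 0.0513). With all 32 libraries in 1 fit the calls of *Nlrp12* (adjusted p = 0.377, edgeR) and *Pcp4l1* (adjusted p = 0.12, edgeR) were lost. *Srgap3* gave 0.92 (SE 0.26, adjusted p = 0.0655, edgeR), with no overlap of the groups, and passed without replicate 4 of the males (0.68, adjusted p = 0.0058, edgeR).

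In chow-fed KO mice, *Susd4* (-3.15, SE 0.57, adjusted p = 0.0225, edgeR) and *Nlrp12* (-2.20, SE 0.37, adjusted p = 0.0167, edgeR) were lower in females, where 2.73% of tested genes passed. Low values in these 2 groups were part of the choice, and *Nlrp12* met the rule in females only. These p-values are therefore not independent of the choice. *Susd4* lost that call without replicate 1 or 2 of the males or 2 or 4 of the females (adjusted p 0.0521 to 0.0782), and *Nlrp12* without replicate 1, 2 or 3 of the females (adjusted p 0.0525 to 0.0596). *Fam19a2* did not pass the filter there, *Srgap3* gave -0.07 (SE 0.45, adjusted p = 0.962, edgeR) and *Pcp4l1* gave 1.07 (SE 0.55, adjusted p = 0.365, edgeR). In treated KO mice all 5 genes differed between the sexes, where 26.3% of tested genes did, from -2.16 for *Susd4* (SE 0.17, adjusted p = 1.13e-05, edgeR) and -1.66 for *Nlrp12* (SE 0.16, adjusted p = 3.53e-05, edgeR) to 0.85 for *Srgap3* (lost when all 32 libraries entered 1 fit, adjusted p = 0.167), 1.21 for *Fam19a2* and 1.84 for *Pcp4l1* (SE 0.17, adjusted p = 3.43e-05, edgeR). Treated KO mice of both sexes had entered the choice as well.

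**Figure D3:**
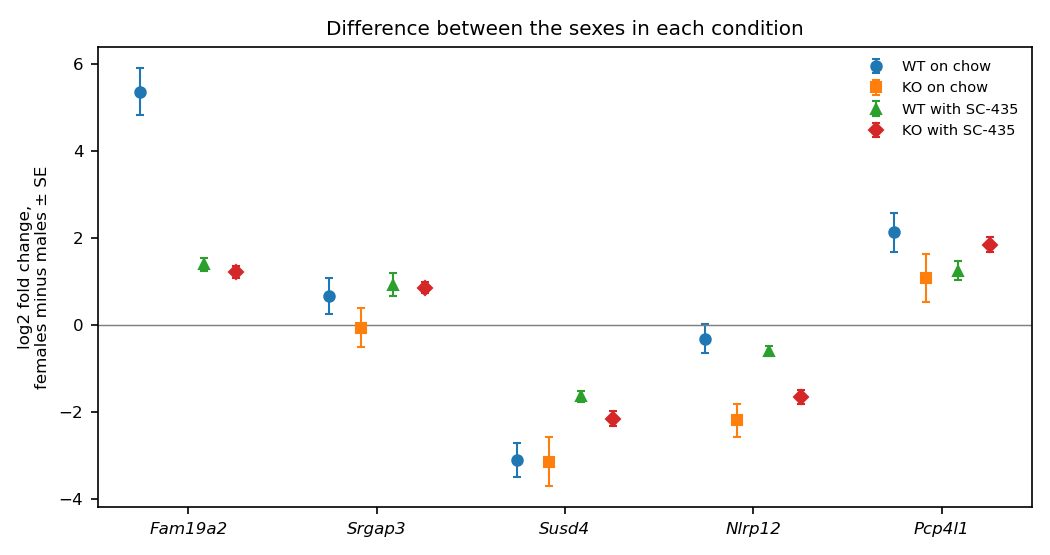
Log2 fold change of females over males, with SE, for each gene in the 4 conditions (circles, WT on chow; squares, KO on chow; triangles, WT with SC-435; diamonds, KO with SC-435; *Fam19a2* was not tested in KO on chow). *Susd4* was male-higher in every condition, from -3.15 to -1.65, while *Fam19a2* and *Pcp4l1* lay above 0 wherever they were measured. Only WT with SC-435 shares no group with the choice of the genes.

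Ordered by group mean, *Fam19a2* ran from treated WT females through treated KO females, treated WT males, treated KO males and chow-fed WT females to the 3 low groups. Treated WT and KO males, treated KO males and chow-fed WT females, and the 3 low groups overlapped their neighbors, and the highest mean was 202 times the lowest. *Srgap3* had the same first 5 groups in the same order, with chow-fed WT males next at 5.94 ± 2.54 CPM (SD, n = 4; 4.68 ± 0.44 without replicate 1, n = 3), gaps below treated KO females and below chow-fed WT males, and a ratio of highest to lowest mean of 13.9. *Susd4* ran from the male groups to the female groups with a ratio of 31.1, and chow-fed KO males overlapped treated WT females. *Nlrp12* had the smallest ratio, 8.21, and a gap to the next group only below treated KO females. *Pcp4l1* had a ratio of 17.4, and its only gap was between chow-fed WT females and the rest.

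Across the 32 mice, log2 CPM of *Fam19a2* and *Srgap3* had a Pearson r of 0.86, and *Susd4* and *Nlrp12* of 0.79, whereas *Susd4* and *Pcp4l1* had -0.13. These correlations follow the groups, and within groups, after subtracting each group mean, the highest was 0.51 for *Srgap3* and *Susd4* and that of *Fam19a2* and *Srgap3* was 0.34. The lowest within groups was -0.19, for *Fam19a2* and *Nlrp12*. Within the 16 females all 10 pairs were positive, from 0.45 to 0.96. The genes were picked for a pattern they share over these groups, so nothing is read from those signs.

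**Figure D4:**
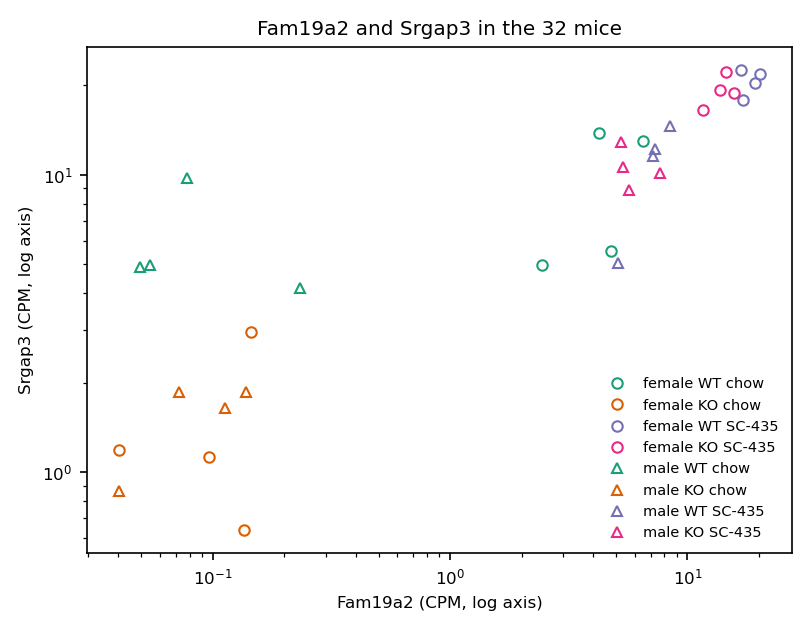
*Fam19a2* against *Srgap3* in each of the 32 mice, in CPM on log axes (circles, females; triangles, males; colors, genotype and diet). Treated mice lie at the upper right, KO mice on chow at the lower left, and chow-fed WT males have *Srgap3* between 4.17 and 9.71 CPM with *Fam19a2* at or below 0.233 CPM.

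Other coding genes averaging 1 CPM or more numbered 11898, and among them the patterns nearest to each gene over the 32 mice were found by Pearson r of log2 CPM. For *Fam19a2* they were *Hmgcs1* (0.91), *Dntt* (0.90) and *Hsd17b7* (0.89), of which *Hmgcs1* and *Hsd17b7* encode cholesterol synthesis enzymes. For *Srgap3* they were *Dct* (0.94), *Rdh11* (0.92) and *Mmab* (0.91). For *Susd4* they were *Slc15a5* (0.96), *Elovl3* (0.94) and *Ugt2b1* (0.94), of which *Elovl3* encodes a fatty acid elongase. For *Nlrp12* they were *Mup12* (0.89), *Hopx* (0.87) and *Mup17* (0.87), and the reads of the near-identical *Mup* genes may be split between copies. For *Pcp4l1* they were *Rdh16f2* (0.85), *Cyp2c37* (0.84) and *Afm* (0.84). The points share libraries and groups, so these are descriptions of likeness over 8 groups.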

How the data were processed

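The authors isolated RNA from snap-frozen livers with TRIzol and sequenced poly(A) libraries. The submitters' processing notes name HISAT2 2.0.5, featureCounts 1.5.0-p3, DESeq2 1.20.0 and mm10, and the strand setting of the counting is not given in the sources used here. The authors deposited a table of 54532 genes with raw read counts and FPKM values for 32 mice, and all 64 columns of samples were mapped to mice by their labels. The deposited FPKM values equal counts per gene length and per a library total that carries a normalization between libraries (0.598 to 1.27 of the counted total), and they were used only to compare levels between genes. The authors' own fold changes and p-values in that table were not used.

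The 5 genes, the pathway lists and the marker lists were chosen with earlier results of these data known. Counts were tested with edgeR 4.0.16 in R 4.3.3 (filterByExpr, TMM, glmQLFit, glmQLFTest) on the libraries of the groups compared, with Benjamini-Hochberg adjustment over all genes tested, and the SE is the log2 fold change divided by the square root of F. The pipeline was tested on simulated data. Named genes are the 5 genes, *Cyp2c70*, the 3 protein-coding genes nearest to each gene by Pearson r, and from each list at most 4 genes per comparison with the largest absolute log2 fold change at an adjusted p under 0.05. *Fam19a5* and *Fam19a3* are also given where they did not pass, and so are members of the list already named. For 48 pairs of libraries within groups, counts differed by far more than sampling noise (lowest chi-square per gene 20.3). Replicate numbers did not pair the mice: in 0 of 14 comparisons was every correlation of same-numbered deviations over 0.1 (range -0.26 to 0.33). Alternatives were median-of-ratios size factors, total counts, DESeq2 1.42.0, no filter, 1 fit of all 32 libraries, the replicate number as a block, and leaving out each library. Depth was 36476021 to 44771350 counts per library, and intervals of counting error are small beside the spread between mice except for *Fam19a2* in the low groups.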

Additional observations from a re-analysis of the deposited data

Results flagged for a closer look

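In 40 groups of 4 mice (5 genes in 8 groups), 4 mice lay further from the others than Dixon's 95% limit allows, where chance flags about 1 in 20. Replicate 1 of the chow-fed WT males, the library that stands apart, was the highest for *Srgap3* (9.71 CPM, next 4.98) and *Pcp4l1* (11.4 CPM, next 4.43). Replicate 4 of that group was the highest for *Fam19a2* (0.233 CPM, next 0.0780), which is 9 reads. Replicate 4 of the treated KO females was the highest for *Nlrp12* (17.6 CPM, next 11.7).

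The response of *Fam19a2* to SC-435 in WT mice differed between the sexes by -3.99 on the log2 scale, females minus males, in the test of the interaction (adjusted p = 0.00971, edgeR). The chow-fed WT males in that test held 2 to 9 reads each, near the floor, so the size of the difference is uncertain. For *Pcp4l1*, every treated WT female was below every chow-fed WT female (log2 fold change -1.47) while every treated KO female was above every chow-fed KO female. That difference between genotypes was not tested, because the KO contrast chose the gene.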

How the results depend on the processing

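Of the counts of genes passing in the 15 comparisons, 78 of 90 values under other settings stayed within 1.5 times the reported count. With all 32 libraries in 1 fit, 1 gene passed for SC-435 in WT females, 1 for treated KO against treated WT females, and 2 for females against males among treated WT mice. DESeq2 called 1 gene for treated KO against treated WT males and 2 for treated KO against chow-fed WT males. For KO against WT males on chow, 0 genes met the rule with median-of-ratios size factors and 1 with total counts. With the replicate block, 1 gene passed for treated KO against treated WT females, 0 for SC-435 in WT males, 0 for treated KO against chow-fed WT males, 0 by the rule for KO against WT males on chow, and 0 for females against males among chow-fed KO mice, and it moved no other count by over 1.5 times. Since the numbers do not pair the mice, these losses were not read as weaker effects. Leaving out 1 library gave 1 to 3 genes for SC-435 in WT females, 1 to 3 for treated KO against treated WT females, 3 to 5 for SC-435 in KO females, 1 to 3 for treated KO against chow-fed WT males, 0 to 2 for KO against WT males on chow and 0 to 2 for females against males among chow-fed KO mice. Of the single genes, 5 values that had not passed turned sign in some setting. For treated KO against treated WT males, *Srgap3* gave 0.041 with the replicate block and -0.27 to 0.14 without 1 library. For females against males among chow-fed KO mice, *Srgap3* gave -0.66 to 0.18 without 1 library, and in the interaction it gave -0.068 (without replicate 1 of the chow-fed WT males) to 0.51. For SC-435 in WT males, leaving out 1 library gave -0.39 to 0.045 for *Susd4* (the latter without replicate 1 on chow) and -0.078 (without replicate 4 on chow) to 0.24 for *Nlrp12*. The cause of these changes was not tested. The interaction of *Fam19a2* held under every alternative (highest adjusted p 0.0428). Depth limits only *Fam19a2* in the low groups, at 2 to 9 reads per mouse.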
